A study of Mus musculus with 2 samples.

Results

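The genes described here are Lin28a, Lin28b, Hmga1, Hmga2, Igf2bp1, Igf2bp2, Igf2bp3 and Nr6a1, which share a history as timing genes of the early embryo and as targets of the let-7 microRNAs. They were chosen by symbol, and all 8 were found in both libraries, among 28001 features of the first, from septal explants, and 32286 of the second, from the telencephalic vesicle. The study examined adhesion and cell identity in the embryonic mouse telencephalon, and both libraries are droplet single-cell libraries of C57BL/6J mice. The septal explant library pooled cells of 8 E11.5 PGKCre;Rosa26YFP embryos and 4 E12.5 Dbx1Cre;Rosa26tdTomato embryos, each from 2 litters, with about 10000 cells loaded. The telencephalic vesicle library pooled 3 wild-type embryos of 2 litters, labelled E12 and aged E11.5 to E12, with about 20000 cells loaded. The sample record of the explants gives the genotype as wild-type, although their embryos carried Cre and reporter alleles. The PGK promoter is active in most cells, so that eYFP marks the E11.5 embryos broadly, whereas tdTomato marks the Dbx1 lineage of the E12.5 embryos only. A cell without eYFP UMIs can come from embryos of either kind, and in this library age and genotype cannot be told apart. Each condition has 1 library and no replicate, so no test was made, and every interval covers counting error only.

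LIN28A and LIN28B are RNA-binding proteins that bind the precursors of let-7 and block their maturation. Mature let-7 in turn represses transcripts that carry its seed match in their 3′ untranslated region (UTR), among them those of Lin28 itself, of HMGA2 and of the IGF2BP proteins. HMGA1 and HMGA2 are AT-hook proteins that shape chromatin, and HMGA2 is known for keeping young neural stem cells self-renewing. IGF2BP1, IGF2BP2 and IGF2BP3 are KH-domain proteins that bind mRNAs and regulate their stability, transport and translation. NR6A1, also called GCNF, is an orphan nuclear receptor that represses pluripotency genes as embryonic cells leave that state. Most of them are known to be high in early embryos and to decline as tissues mature.

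The sequence that joins these genes is the let-7 seed, the stretch from base 2 to base 8 of the microRNA, in capitals in the following RefSeq mature sequences of the mouse (GRCm38.p6). They are shown because every site searched for in the genes is a match to this stretch.
mmu-let-7a-5p: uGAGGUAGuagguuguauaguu
mmu-let-7b-5p: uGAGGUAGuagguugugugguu
mmu-let-7i-5p: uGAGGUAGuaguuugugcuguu
mmu-miR-98-5p: uGAGGUAGuaaguuguauuguu
mmu-let-7j: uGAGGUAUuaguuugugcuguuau
Of 11 mature let-7 and miR-98 names, 10 shared the seed GAGGUAG, and let-7j alone had another, GAGGUAU. The matching DNA letters on the transcript strand are CTACCTC, or CTACCTCA with the A that extends the match to 8 bases.

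All 8 genes held at least 1 match in their longest annotated 3′ UTR (GENCODE M21, GRCm38). This presence, and the number of matches, was fixed in part by choosing genes known as let-7 targets. Of 20979 genes 8.96% held a match, but their median UTR had only 954 bases. Among UTRs of like length the share ran from 8.12% for Hmga1 to 34.4% for Igf2bp1. One site of each gene is printed 5′ to 3′ on the transcript strand with the match in capitals, to show the stretch that the family has in common.
Lin28a, chr4:134005184-134005213, minus strand: gtgcacagcctgttgaaCTACCTCAttttt
Lin28b, chr10:45381017-45381046, minus strand: tcacccgggcgggaagtCTACCTCAtgcaa
Hmga1, chr17:27563275-27563303, plus strand: tctcctctgttcacaaaCTACCTCtggac
Hmga2, chr10:120364219-120364248, minus strand: gcgccgacattcaatttCTACCTCAgcatc
Igf2bp1, chr11:95959352-95959381, minus strand: accagcagtgctattaaCTACCTCAgcccc
Igf2bp2, chr16:22059468-22059497, minus strand: aaacacacaaataaaagCTACCTCAggtgt
Igf2bp3, chr6:49086782-49086811, minus strand: cgtgcatttttactcaaCTACCTCAggtat
Nr6a1, chr2:38727444-38727473, minus strand: aatgttgacaaagacaaCTACCTCAatgga
The longer match was found in 7 of the genes. Hmga1 was the exception, with a single short match in a UTR of 1183 bases.

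The number of matches differed widely among the genes. Nr6a1 held 8 in a UTR of 4453 bases. Every share given here counts the gene's own UTR. For Nr6a1 the 0.0749% of 1336 UTRs of like length with as many is its own UTR alone. Hmga2 held 4 in 3014 bases, against 0.124% of like UTRs with as many, and its first lies 58 bases into the UTR. Lin28b held 4 in 4445 bases and Igf2bp1 held 4 in 6337 bases, with shares of 0.297% and 0.332% for UTRs of like length. Lin28a held 2 in 2775 bases, both of the longer kind, a number reached by 2.03% of like UTRs. Igf2bp2, with 1784 bases, and Igf2bp3, with 2119 bases, held 1 each, and 12.1% and 13.3% of like UTRs held at least 1. These matches are letters in annotated transcripts, and let-7 itself was not measured in either library.

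The septal explants gave 83103280 UMIs over 5827 barcodes and the telencephalic vesicle 194821794 UMIs over 14283, with 1 barcode in common. After filtering, 5384 and 11707 cells remained, with medians of 12868.5 and 9032 UMIs. Clusters were named without the 8 genes. They comprised 3187 apical progenitors (APs), 325 basal progenitors (BPs) and 1254 neurons in the explants, and 6564, 544 and 1839 in the vesicle. A further 246 and 598 cells had subpallial AP markers together with more BP than AP signal, and are called differentiating. AP markers summed to 0.312 and 0.262 times their AP level in neurons of the explants and the vesicle, and neuronal markers to 6.47 and 6.03 times. Levels are given as CPM, the summed UMIs of a gene per 1000000 UMIs of its class. Haemoglobin and other erythroid markers, a sign of free RNA, summed to 556 CPM in APs and 608 CPM in neurons of the explants, and to 2277 and 6276 CPM in the vesicle. Levels were not compared between libraries, which differ in tissue, kit and software together.

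From APs to neurons, Hmga2 was the gene that differed most. In the explants it stood at 288 CPM in APs, at 79.2 CPM in BPs, at 83.0 CPM in differentiating cells and at 21.9 CPM in neurons. The ratio of neurons to APs was 0.0761 (95% interval 0.0680 to 0.0849), a level 13.1 times lower that ranked 126th from the lowest of 12734 genes. In the vesicle Hmga2 stood at 944 CPM in APs, 358 CPM in BPs, 200.0 CPM in differentiating cells and 84.7 CPM in neurons. The ratio there was 0.0898 (0.0847 to 0.0951), an 11.1-fold difference that ranked 152nd from the lowest of 15869 genes. At least 1 Hmga2 UMI was found in 89.4% of APs and 19.2% of neurons of the explants, and in 94.7% and 30.5% in the vesicle. The median AP held 3 Hmga2 UMIs in the explants and 7 in the vesicle.

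Past a 2-fold difference, 2 of the 8 genes were lower in neurons of the explants, Hmga1 and Hmga2, beside 16.3% of the 12734 genes with at least 50 UMIs over both classes, which are the genes compared. Another 2, Lin28a and Nr6a1, were higher there, beside 17.4% of all genes. In the vesicle Hmga1 and Hmga2 were again lower, beside 19.5% of all genes, and none of the 8 was higher, beside 16.7%. With doublets kept, Hmga1 in the vesicle was at 0.541, which is not past the fold, and Hmga2 at 0.234. With 2 of 8 genes in a direction, these counts are close to those of any genes, and what sets Hmga2 apart is the size of its difference. The median ratio was 0.856 over the 8 genes and 1.03 over all genes in the explants, and 0.767 and 0.947 in the vesicle.

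**Figure D1:**
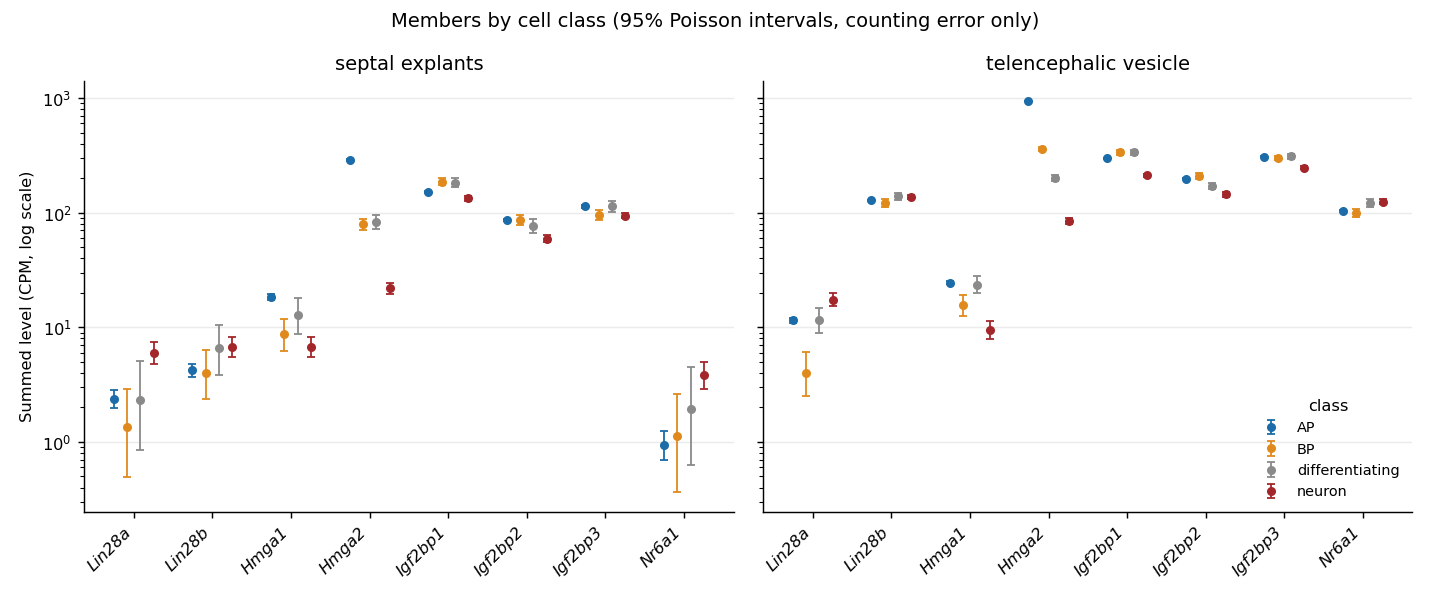
Summed level of each gene in APs, BPs, differentiating cells and neurons of each library (CPM, log axis), with exact 95% Poisson intervals that cover counting error only. Hmga2 is at 288 CPM in APs and 21.9 CPM in neurons of the septal explants, and at 944 and 84.7 CPM in the telencephalic vesicle, whereas the 3 Igf2bp genes stay within a narrow band.

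Hmga1, the other chromatin gene, had the same direction in a gene counted much less often. It was at 18.5 CPM in APs and 6.74 CPM in neurons of the explants, a ratio of 0.365 (0.294 to 0.449). In the vesicle it was at 24.6 and 9.53 CPM, a ratio of 0.388 (0.324 to 0.462). BPs lay between, at 8.73 CPM in the explants and 15.6 CPM in the vesicle, although in the explants the BP interval of 6.21 to 11.9 CPM reached that of neurons. Reads of Hmga1 can match more than 1 locus, so its counts, here and among regions, are uncertain to that extent.

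The IGF2BP family, which binds mRNAs rather than chromatin, was present throughout the lineage. Igf2bp1 was at 152 CPM in APs, 187 CPM in BPs and 133 CPM in neurons of the explants, and at 299 CPM, 336 CPM and 211 CPM in the vesicle. Its highest level was therefore in BPs in both libraries, with intervals of 174 to 200 CPM and 321 to 352 CPM that did not meet those of APs, although the differentiating cells, at 182 and 335 CPM, stood at the same level as BPs. Igf2bp2 was at 86.3 CPM in APs, 85.9 CPM in BPs and 59.2 CPM in neurons of the explants. In the vesicle it was at 197, 209 and 144 CPM, and in both libraries APs and BPs had intervals that met. Igf2bp3 was at 113 CPM in APs, 95.3 CPM in BPs and 94.4 CPM in neurons of the explants, and at 307, 299.8 and 247 CPM in the vesicle. Neurons thus kept 0.686 to 0.880 of the AP level of these genes in the explants and 0.706 to 0.803 in the vesicle, all with intervals below 1 and none past 2-fold.

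Lin28a and Lin28b, the let-7 blockers, and Nr6a1 were not lower in neurons. Lin28a had 121 UMIs in the explant APs and 89 in the neurons, levels of 2.38 and 6.00 CPM and a ratio of 2.52 (1.90 to 3.34). In the vesicle it was at 11.49 and 17.4 CPM, a ratio of 1.52 (1.32 to 1.74), and BPs were lower than both at 3.99 CPM (2.504 to 6.05). Lin28b was at 4.22 CPM in APs and 6.74 CPM in neurons of the explants, a ratio of 1.60 (1.246 to 2.03), and at 128 and 136 CPM in the vesicle, a ratio of 1.06 (1.01 to 1.12). Nr6a1 had 48 UMIs in APs and 57 in neurons of the explants, a ratio of 4.07 (2.73 to 6.11) on few counts. In the vesicle Nr6a1 had 13626 UMIs in APs and 1745 in neurons, at 104 and 125 CPM, a ratio of 1.199 (1.14 to 1.26). Whether the vesicle UMIs of Nr6a1, Lin28b or any other of the 8 genes include reads of introns is not known. The septal explants thus gave Lin28a, Lin28b and Nr6a1 so few UMIs that 4.05%, 6.58% and 2.099% of cells held any.

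Lower levels of Hmga2 and Hmga1 toward neurons were also seen without clusters. Most markers of the ranking used had also served to name the classes, so it is not an independent view. Cells of each library were ranked by the log2 ratio of neuronal to AP marker UMIs and divided into 10 equal bins. Hmga2 was highest in the 2nd bin of the explants, at 336 CPM, and lowest in the last, at 13.1 CPM, a 25.6-fold range. It was under 50% of its highest level from the 7th bin on, at 140 CPM, where 50.1% of cells were APs and 43.7% BPs or differentiating cells. By the 8th bin, with 60.3% neurons, it was at 35.9 CPM. In the vesicle Hmga2 was at 751 CPM in the first bin, at 1081 CPM in the 6th, at 321 CPM in the 8th and at 49.6 CPM in the last, a 21.8-fold range. The bins between its high and low levels were those with the most BPs and differentiating cells. Hmga1 ran from 23.5 CPM in the 5th bin to 4.16 CPM in the last in the explants, and from 27.9 CPM in the 2nd bin to 6.81 CPM in the last in the vesicle. The Igf2bp genes had ranges of 1.27 to 1.61-fold and 1.42 to 1.79-fold in the respective libraries. Igf2bp1 was highest in the 8th bin of the explants, at 177 CPM, but in the 3rd of the vesicle, at 310 CPM. Its peak in BPs of the vesicle was thus not seen in this ranking, where the 8th bin was at 305 CPM. Lin28b was highest at the neuronal end of both, in the 9th bin of the explants and the last of the vesicle. The range of Lin28b was 2.37-fold and 1.24-fold.

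**Figure D2:**
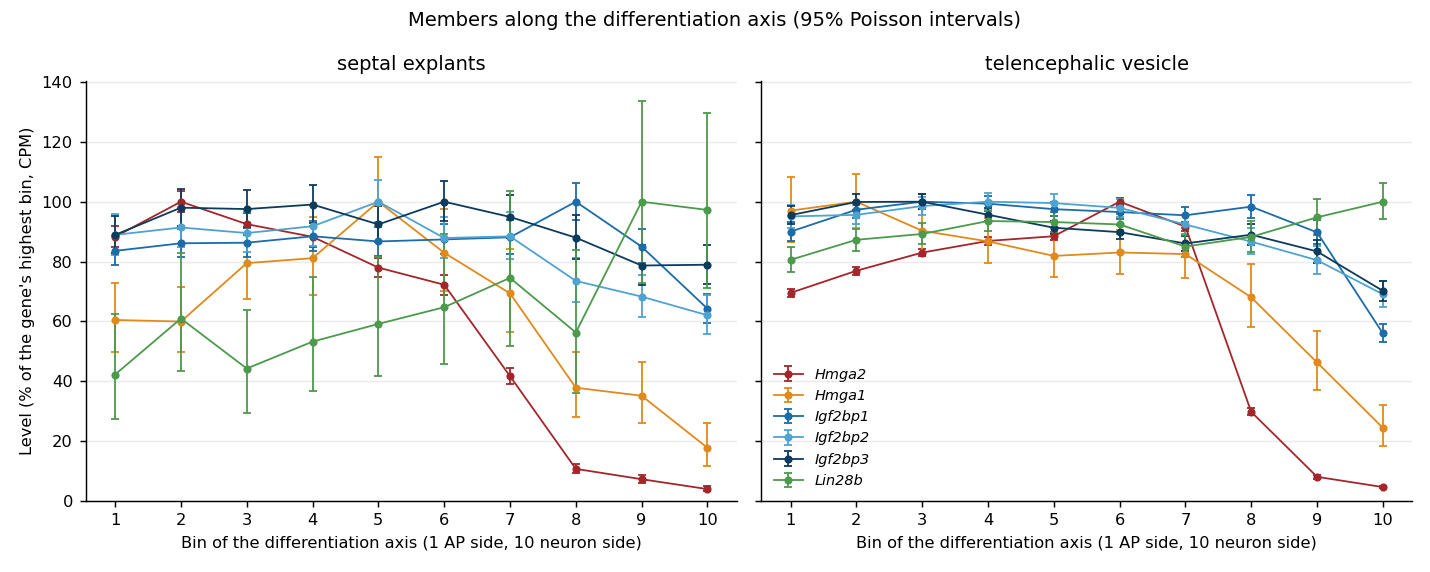
Level of 6 of the genes in 10 equal bins of neural cells ordered from AP to neuron, as a percent of the highest bin of each gene (CPM), with exact 95% Poisson intervals. Hmga2 and Hmga1 are lowest late in the order, Hmga2 at 13.1 against 336 CPM in the explants and at 49.6 against 1081 CPM in the vesicle. The Igf2bp genes keep most of their level, and Lin28b is highest toward the neuronal end, with a 2.37-fold range in the explants.

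Free RNA in droplets can place UMIs of one cell in another, and the share in erythroid-like cells, a lineage apart from the neural one, is given for comparison. Whether red cells of this age make these transcripts themselves was not tested. Cells of the vesicle were thinned to 3500 UMIs, and shallower cells were left out. At that depth 80.0% of APs and 17.1% of neurons (15.4 to 18.96) held Hmga2, and so did 13.2% of erythroid-like cells (9.84 to 17.1). The share in neurons is therefore near that of a class outside the brain lineage. In the explants thinned to 8000 UMIs the shares were 81.1% of APs, 14.2% of neurons and 23.1% of the 26 erythroid-like cells (8.97 to 43.6). The intervals of neurons and erythroid-like cells thus overlapped for Hmga2 at fixed depth, and 26 cells are too few to show a separation in the explants. As summed CPM, Hmga2 in neurons of the vesicle stood above the erythroid-like level given further below. Hmga1 was held by 8.07% of APs, 3.34% of neurons (2.55 to 4.30) and 1.68% of erythroid-like cells (0.619 to 3.62) in the vesicle, and there too the last shares overlap. The neuronal shares of the other genes stood well clear of those in erythroid-like cells: 47.9% against 4.76% for Igf2bp1, 36.9% against 3.92% for Igf2bp2 and 54.4% against 10.9% for Igf2bp3. The same held for Lin28b, with 34.2% against 3.08%, for Nr6a1, with 32.1% against 3.08%, and for Lin28a, with 6.11% against 0.280%.

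Among APs the levels of Hmga2 depended on region. In the vesicle pallial AP-like cells held 1667 CPM, ventral pallial (VP) AP-like cells 1203 CPM, septal AP-like cells 644 CPM, hem-like cells 601 CPM and subpallial AP-like cells 454 CPM. No neighbouring intervals in this order overlapped, and APs without a regional name, at 856 CPM, fell between. The median cell held 14 Hmga2 UMIs in the pallial AP-like class and 4 in the subpallial. In the explants the order was 438.5 CPM in APs without a regional name, 347 CPM in pallial, 229 CPM in subpallial, 213 CPM in septal AP-like cells and 180.5 CPM in hem-like cells, of which subpallial and septal just met in their intervals. Pallial AP-like cells thus exceeded subpallial ones 1.52-fold (1.45 to 1.59) in the explants and 3.67-fold (3.61 to 3.74) in the vesicle.

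The classes were not uniform. In the vesicle the 3 pallial AP-like clusters held 1014, 1257 and 2038 CPM of Hmga2, and every one of them exceeded the 3 subpallial clusters, at 368 to 554 CPM, and the 2 septal ones, at 509 and 742 CPM. In the explants 3 of the 4 pallial AP-like clusters held 399.9, 415 and 445 CPM, above all subpallial clusters at 219 to 236 CPM and all septal ones at 176 to 284 CPM. The other pallial cluster, of 297 cells and led by the glial gene Aldoc, held 146 CPM, the lowest of any AP cluster of the explants.

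Hmga1 had the opposite order in pallium and subpallium. In the explants it was at 32.6 CPM in subpallial, 17.1 CPM in septal and 10.2 CPM in pallial AP-like cells and at 6.17 CPM in hem-like cells. Subpallial exceeded pallial AP-like cells 3.18-fold (2.68 to 3.80), and each of the 3 subpallial clusters, at 28.2 to 37.4 CPM, lay above each of the 4 pallial ones, at 9.12 to 12.2 CPM. In the vesicle the levels were 30.5, 24.6, 20.8 and 11.1 CPM in the same order, a 1.47-fold difference (1.33 to 1.61), but the single clusters overlapped. Between pallial and subpallial AP-like cells the paralogues Hmga1 and Hmga2 thus differed in opposite directions, whereas hem-like cells of the explants were the lowest class in both.

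**Figure D3:**
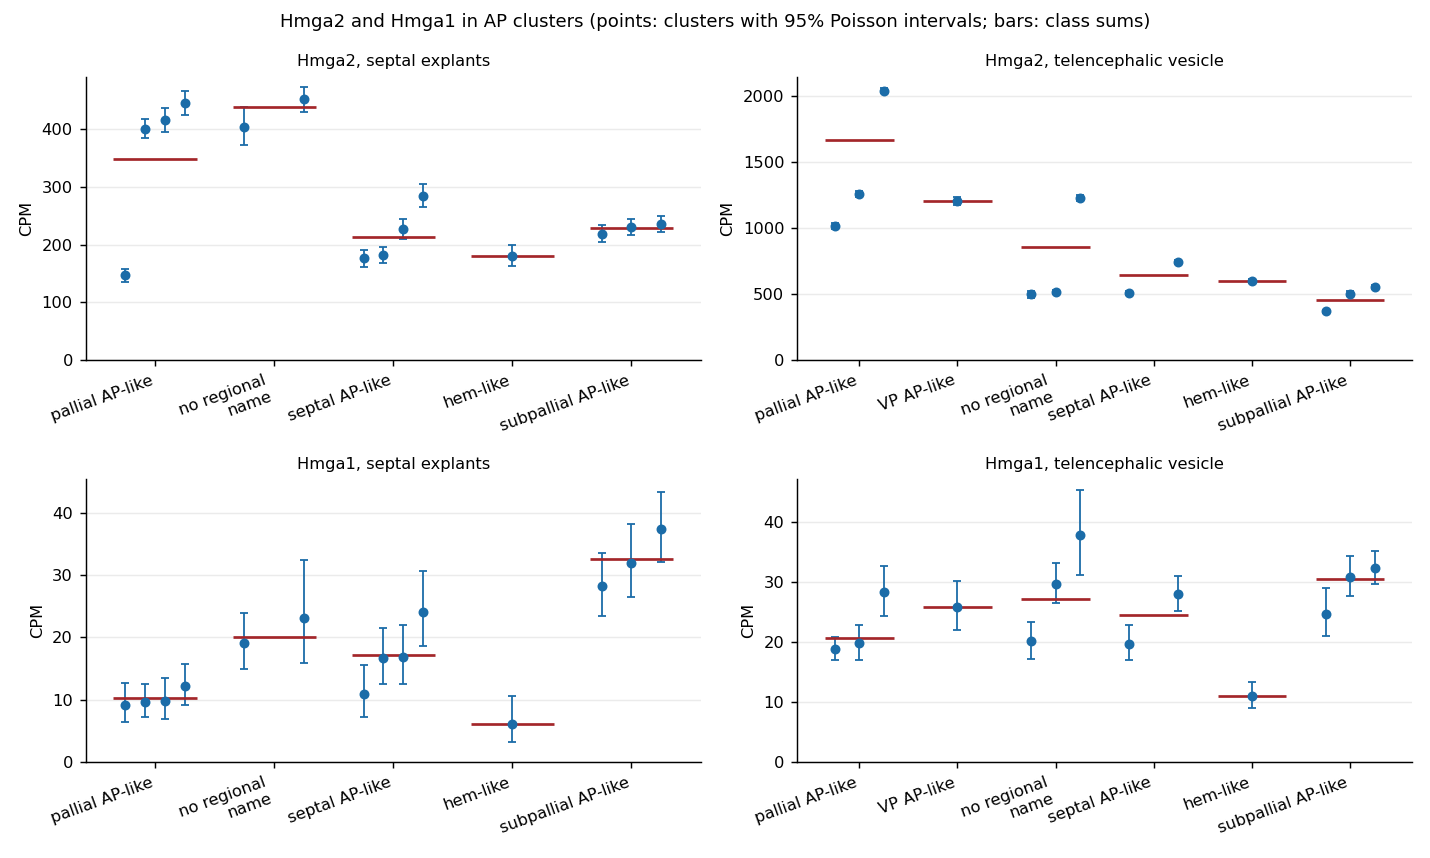
Hmga2 and Hmga1 in each AP cluster (points, CPM with exact 95% Poisson intervals) and in the sum of each regional class (bars) of both libraries. Pallial AP-like clusters are high in Hmga2, except 1 of the explants at 146 CPM, and subpallial ones are high in Hmga1 in the explants, whereas in the vesicle the Hmga1 levels of single clusters overlap.

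The other genes differed by region to unequal degrees. Lin28a was 3.93 times higher (2.26 to 7.17) in subpallial than pallial AP-like cells of the explants and 2.01 times (1.73 to 2.34) in the vesicle. Lin28b was 2.08 times (1.43 to 3.06) and 1.11 times higher (1.07 to 1.16), in the same direction. Igf2bp3 was likewise 1.29 times (1.21 to 1.38) and 1.19 times higher (1.16 to 1.22) in the subpallial cells, whereas Igf2bp2 was 1.13 times (1.04 to 1.22) and 1.26 times higher (1.21 to 1.30) in the pallial cells. Igf2bp1 was 1.17 times (1.10 to 1.24) and 1.05 times higher (1.03 to 1.08) in the subpallial cells. Nr6a1, with 17 pallial and 14 subpallial UMIs, showed no detectable difference in the explants, and was 1.08 times higher (1.03 to 1.13) in the subpallial cells of the vesicle. The septal AP-like cells of the vesicle held the highest AP levels of Lin28a, Lin28b and Nr6a1, at 17.5, 149.8 and 123 CPM, although for Lin28a and Nr6a1 the interval met that of the next class.

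Neuron classes also differed. Lin28a in the explants was at 13.6 CPM (9.39 to 19.2) in GABAergic neuron-like cells, 7.67 CPM in septal glutamatergic-like cells and 4.21 CPM in Cajal-Retzius-like cells. In 104 pallial glutamatergic-like neurons it was not seen, which allows a level of up to 2.65 CPM, the upper bound of the interval. Lin28b followed with 10.7 CPM in GABAergic neuron-like cells and 1 UMI in the pallial glutamatergic-like ones. Of these pallial neurons, 3 held at least 3 eYFP UMIs and 76 held none, against 131 and 61 GABAergic neuron-like cells. Neuron classes of the explants thus differed in their make-up by embryo. What part age or genotype had in their levels was not tested. Nr6a1 stood at 11.99 CPM (7.76 to 17.7), from 25 UMIs, in the 210 septal glutamatergic-like neurons and at 0.719 to 3.31 CPM in the other neuron classes. In the vesicle the differences were smaller: Lin28a was at 20.8 CPM in GABAergic, 17.7 CPM in Cajal-Retzius and 14.3 CPM in pallial glutamatergic-like neurons. Nr6a1 there was at 159 CPM (145 to 174) in Cajal-Retzius-like, 139 CPM (129 to 149) in GABAergic and 97.7 CPM (89.8 to 106) in pallial glutamatergic-like neurons, an order in which the first pair met in their intervals. Igf2bp3 was highest in the GABAergic class in both, at 129.8 and 267 CPM, and lowest in pallial glutamatergic-like cells of the explants, at 71.2 CPM, and Cajal-Retzius-like cells of the vesicle, at 221 CPM. A class of 68 shallow neurons of the vesicle, with a median of 1125.5 UMIs, was left out of this order, since each gene had at most 17 UMIs in it.

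In the classes that are neither AP, BP nor neuron Hmga2 was well above the erythroid-like level of 53.6 CPM in the vesicle, at 448 CPM in 492 mesenchyme-like, 412 CPM in 274 choroid plexus-like, 395 CPM in 28 endothelial-like and 296 CPM in 69 macrophage-like cells. All 4 were at or below the 454 CPM of subpallial AP-like cells, the lowest AP class. Igf2bp1 was at 304, 307, 263 and 185 CPM and Igf2bp3 at 317, 272, 169 and 259 CPM in the same classes, so that both genes were as high in mesenchyme-like cells as in APs. Lin28a was at 2.90 CPM (1.77 to 4.48) in mesenchyme-like cells, below its level of 11.49 CPM in APs, and had at most 3 UMIs in the endothelial and macrophage-like cells.

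Whether the genes shared cells was examined in APs thinned to a fixed depth. In 3020 APs of the explants, 1702 held UMIs of both Hmga2 and Igf2bp1, where their shares alone would give 1693. Lin28a and Lin28b, whose roles overlap, were found together in 5 explant APs where 1.75 would be given by their shares, and in 92 vesicle APs where 76.0 would be. In none of the 28 pairs of either library did the interval of observed over expected leave out 1. That interval treats the number of such cells as a Poisson count, which is too wide where both genes are held by most cells. It therefore cannot decide whether the common pairs depart slightly from their shares. In the vesicle as deposited the interval left out 1 in 19 of 28 pairs, all above 1. Kept cells of the vesicle ran from 500 to 207131 UMIs, so these pairs are not at a fixed depth. What part depth had in them was not tested. Thinning also lowers the counts and widens the intervals. For Lin28a and Lin28b the ratio was 1.27 as deposited and 1.21 when thinned (0.975 to 1.484), an interval that holds the former value. For Lin28a and Nr6a1 it was 1.26 and 0.889 (0.683 to 1.137), an interval that leaves out the former value.

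The other genes of the let-7 pathway were counted by lists. Of 19 let-7 processing genes compared, 1 was higher and 1 lower in neurons of either library, with median ratios of 0.972 in the explants and 0.861 in the vesicle. Ago4, an Argonaute protein that carries microRNAs, was the higher one in both, at 3.20 and 2.34 times its AP level. The lower one was Khsrp, which helps process let-7 precursors, at 0.467 in the explants, and Dgcr8, the partner of Drosha, at 0.470 in the vesicle. Of 27 let-7 targets other than the 8 genes, 3 were higher and 10 lower in the explants, with a median of 1.01, where 17.4% and 16.3% of all genes were. Of 28 in the vesicle, 4 were higher and 8 lower, with a median of 0.872, where 16.7% and 19.5% of all genes were. The lowest were the progenitor nuclear receptor Nr2e1, at 0.0561 and 0.117, and the cell cycle genes Cdk6, at 0.121 and 0.129, and Ccnd1, at 0.240 and 0.144. The highest in the explants were Myc, at 6.77, Arid3a, at 3.25, and Arid3b, at 2.76, and the same genes led in the vesicle, at 2.34, 3.36 and 2.18. Targets were thus found in both directions, and their medians stood near those of all genes, 1.03 and 0.947. The lower ones had a larger share than among all genes, less so in the vesicle. The list holds cell cycle and progenitor genes and was chosen with earlier results known, so that share is not read as a result about let-7.

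Late progenitor genes, which mark the gliogenic end of the timetable, followed Hmga2 in being AP genes. Of 18 compared, 11 were lower and 2 higher in neurons of the explants, with a median of 0.306, and 13 lower and 1 higher in the vesicle, with a median of 0.294, beside 16.3% lower and 17.4% higher, and 19.5% lower and 16.7% higher, of all genes. The glutamate transporter Slc1a3 was at 0.0542 and 0.0769, the lipid-binding Fabp7 at 0.120 and 0.129, and Aldoc at 0.0772 in the explants and the endothelin receptor gene Ednrb at 0.0931 in the vesicle. Slc1a2, another glutamate transporter, was higher in neurons at 2.63 and 2.34, as was Nfix in the explants at 2.02, whereas in the vesicle Nfix was lower at 0.163. Several of these, such as Fabp7 and Slc1a3, also served to name APs, so their direction was in part chosen. Of 5 transcripts that IGF2BP proteins are known to bind, Actb was higher in neurons at 2.60 and 2.12 and Myc as given above. H19 was lower in the explants at 0.300, and so were Igf2 and Cd44 on few counts, the latter also lower in the vesicle at 0.299. Of the 7 let-7 host transcripts, 2 were in the gene table of the vesicle and none in that of the explants: Mir99ahg was lower in neurons at 0.183 and Mir100hg was at 0.735.

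The genes most like Hmga2 over clusters of at least 50 neural cells, by Pearson's correlation of log2(CPM + 1), were Eef1d, Phgdh and Galk1 in the explants, with r of 0.966, 0.962 and 0.958 over 25 clusters. In the vesicle they were Plagl1, Pgam1 and Gpd2, with r of 0.955, 0.951 and 0.944 over 23 clusters. Eef1d belongs to translation elongation, Phgdh to serine synthesis, Galk1, Pgam1 and Gpd2 to sugar and glycerol metabolism, and Plagl1 is an imprinted zinc finger gene. Hmga1 was most like Apela, at 0.860, in the explants and Msn, at 0.939, in the vesicle. The clusters share a library and its base composition, and these values are a description. For Igf2bp1 in the explants, whose levels varied only from 81.2 to 209.7 CPM, the best was Aim2 at 0.757, and for Igf2bp2 Gemin2 at 0.882. In the vesicle the best values of the Igf2bp genes, Lin28b and Nr6a1 were from 0.953 to 0.996 with the shallow cluster of 68 neurons. Without it the values of Lin28b, Nr6a1 and Igf2bp2 were lower and those of Igf2bp1 and Igf2bp3 changed less, and the best were Tpm4 at 0.939 for Igf2bp1, Eml4 at 0.883 for Igf2bp2, Erbin at 0.936 for Igf2bp3, Pced1b at 0.752 for Lin28b and Cpq at 0.837 for Nr6a1. For Lin28a the best were Pcbd1 at 0.868 in the explants and Kcnh2 at 0.732 in the vesicle, and Lin28b was most like Meis1 in the explants at 0.823, Igf2bp3 most like 0610009O20Rik at 0.824.

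Cells with eYFP, a mark of the E11.5 embryos, were then compared in the explants with cells without it. Those without eYFP can come from embryos of either kind. The groups were 1859 APs with at least 3 eYFP UMIs and 983 APs with none. Their cells held medians of 14994 and 13560 UMIs, so the former were deeper. Hmga2, which is known to decline with age in neural progenitors, was at 315 CPM in the former and 249.6 CPM in the latter, a ratio of 1.26 (1.21 to 1.31). APs with 1 or 2 eYFP UMIs were at 235 CPM, and the 151 APs with at least 1 tdTomato UMI and no eYFP, a mark of the E12.5 embryos, at 226 CPM (207 to 246). Reporter UMIs were not exclusive, since of 403 cells with tdTomato 9.43% also held at least 3 eYFP UMIs and 18.4% held 1 or 2, so a single UMI does not fix the embryo of a cell. The eYFP-high APs were thus above each of the other groups over all AP clusters. The groups with 1 or 2 eYFP UMIs and with tdTomato were not compared without the cluster described next. None of the 7 genes compared was higher past 1.5-fold, beside 2.75% of all genes, and 1, Hmga1, was lower, beside 1.47%. Hmga1 was at 14.7 CPM in eYFP-high APs and 23.3 CPM in those without eYFP, a ratio of 0.634 (0.550 to 0.731). Its ratio was below 1 in 11 of the 14 AP clusters, with an interval below 1 in only 3 of them. Since its reads can match more than 1 locus, this difference is uncertain, as are the other values of Hmga1. Nr6a1 had 36 and 8 UMIs in these groups, under the minimum of 50, and was left out.

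The Hmga2 difference was smaller without 1 cluster. The pallial AP-like cluster led by Aldoc held 5 eYFP-high cells of 297, 1.68%, whereas eYFP-high cells made up 52.8% to 80.2% of the other 13 AP clusters. Its 225 cells without eYFP had 137 CPM of Hmga2. Without that cluster Hmga2 was at 314 and 285 CPM, a ratio of 1.10 (1.06 to 1.15). Within the remaining clusters the ratio was above 1 in 12 of 13, but with an interval above 1 in only 1 of them, a subpallial AP-like cluster at 1.204 (1.04 to 1.39). The smaller ratio is therefore a modest difference that recurred in direction over most clusters, which share 1 library. Hmga1 without the Aldoc cluster was at 14.7 and 26.8 CPM. Its ratio was 0.549 (0.473 to 0.637), further from 1 than over all APs. The late progenitor genes Aldoc, Nfib and Nfix, the 3 of 17 compared that were lower past 1.5-fold in eYFP-high APs beside 1.47% of all genes, at 0.189, 0.619 and 0.493, moved to 0.804, 0.943 and 1.14 without the cluster. The cluster was picked after the data were seen and is led by Aldoc, so the move of Aldoc was fixed in part by that choice.

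The other genes differed little with eYFP. In APs the ratios were 1.08 (1.03 to 1.14) for Igf2bp1, 0.973 (0.910 to 1.04) for Igf2bp2 and 1.11 (1.05 to 1.18) for Igf2bp3. Without the Aldoc cluster they were 1.05, 0.957 and 1.04, each with an interval that held 1. Lin28a, at 1.17 (0.769 to 1.83), and Lin28b, at 1.22 (0.887 to 1.70), had too few UMIs to show a difference of that size, and went to 0.959 and 0.988 without that cluster. In neurons, 682 with at least 3 eYFP UMIs and 382 with none, Hmga2 was at 23.3 and 20.2 CPM, a ratio of 1.16 (0.893 to 1.51). The ratios there were 1.04 (0.937 to 1.15) for Igf2bp1, 1.13 (0.960 to 1.32) for Igf2bp2, 1.07 (0.946 to 1.21) for Igf2bp3 and 1.34 (0.838 to 2.19) for Lin28b. Lin28a was at 1.21 (0.737 to 2.04) and Nr6a1 at 1.13 (0.620 to 2.14). None of the 8 genes was higher past 1.5-fold in neurons, beside 3.03% of all genes, and Hmga1 alone was lower, beside 2.47%, at 0.580 (0.374 to 0.901) and with the same uncertainty. Pallial glutamatergic-like neurons were unevenly marked, with 3 eYFP-high cells and 76 without eYFP. Of the other let-7 lists in APs, only Trim71, an RNA-binding protein of the same timing pathway, at 1.68 (0.966 to 3.07) on 77 UMIs, and Igf2, at 1.66 (0.941 to 3.11) on 72 UMIs, passed 1.5-fold upward, both with intervals that held 1. The medians were 1.02 over 19 processing genes and over 27 targets and 5 IGF2BP-bound transcripts alike, and 0.839 over 17 late progenitor genes.

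**Figure D4:**
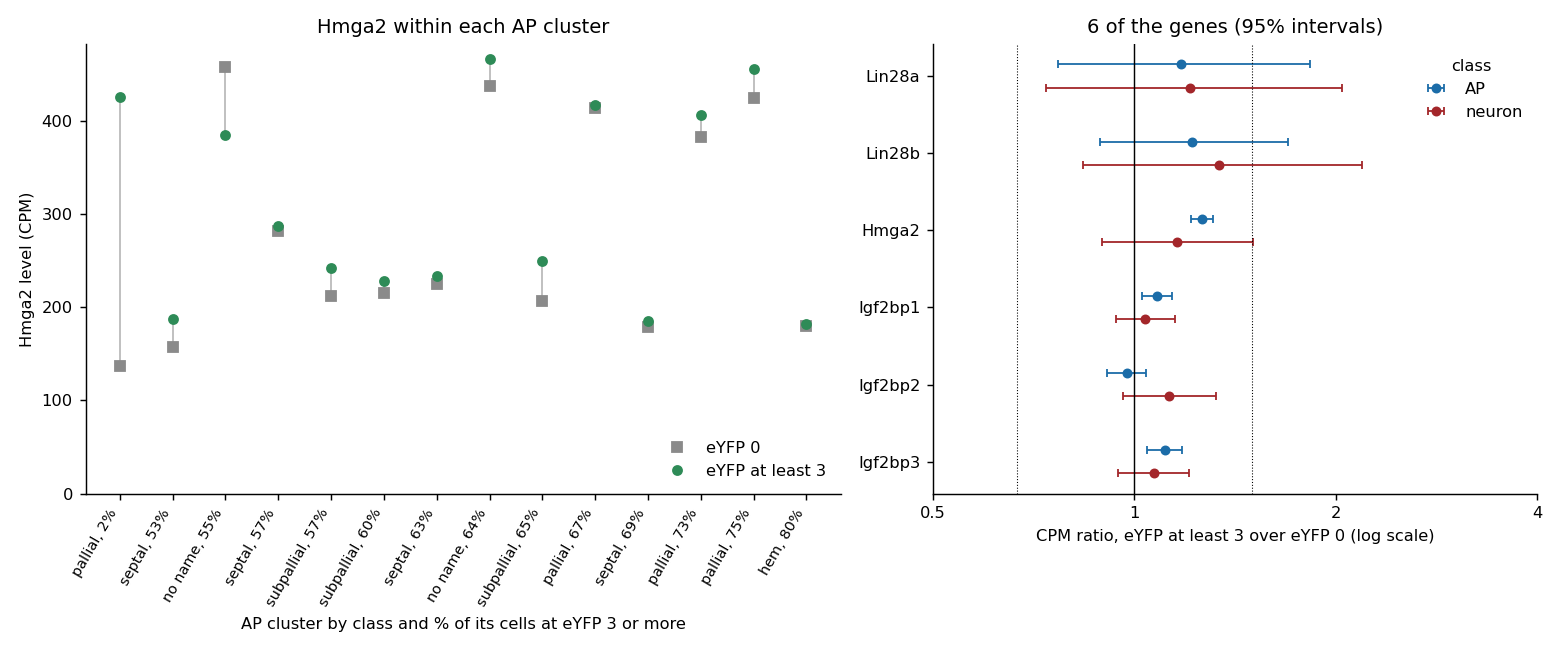
Left, Hmga2 level (CPM) of cells with at least 3 eYFP UMIs and with none in each of the 14 AP clusters of the explants, ordered by the percent of cells at 3 or more. Right, ratio of both groups for 6 of the genes in APs and neurons (log axis, exact 95% intervals, dotted lines at 1.5-fold). Hmga2 in APs, at 1.26, lies above 1, and no ratio shown passes 1.5-fold, whereas Hmga1, not drawn, was at 0.634 in APs and 0.580 in neurons. Nr6a1 is not drawn either.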

How the data were processed

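Both deposited tables hold raw UMI counts per gene and barcode, made by the authors with Cell Ranger 2.1.1 (kit v2, mm10 to which both reporter sequences were added) for the septal explants and, per the submitters' processing notes, Cell Ranger 7.1.0 on mm10 (kit v3.1) for the telencephalic vesicle. Whether introns were counted is not given in the sources used here. Reads that match more than 1 locus, or both strands of the Nr6a1 locus, depend on how that software assigned them. One withheld feature is not reported here.

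Barcodes over 3 median absolute deviations of the mitochondrial percent were removed, and Scrublet, as scanpy 1.11.5 provides it, marked 60 doublets (1.10%) in the explants and 764 (6.13%) in the vesicle, which were removed (0.8% of doublets were assumed for every 1000 barcodes). Each library was clustered by itself with the Leiden method at resolution 1.5 (15 neighbours in 30 principal components of 2000 variable genes, from which the 8 genes, sex-linked genes, reporters and cell cycle genes were kept out). Clusters were named from marker lists by a rule set after the clusters were seen, and 302 and 899 cells stayed unnamed. UMIs were summed per class and given as CPM with exact Poisson intervals, shares as exact binomial (Clopper-Pearson) intervals, and ratios with the exact conditional interval of 2 Poisson counts, all at 95% and covering counting error only. A ratio was read where both classes together held at least 50 UMIs, and called past 2-fold (neurons against APs) or 1.5-fold (eYFP). Thinning drew 8000 UMIs a cell in the explants and 3500 in the vesicle, leaving out shallower cells. There is 1 library per condition, so no test across samples could be made. Genes are named where they are members, are extreme members of a list with at least 200 UMIs, or are the 3 most alike with at least 500 UMIs. Those under these limits were added after their values were seen. The 8 genes, the lists and the markers were chosen with earlier results of these data known. Let-7 matches were searched on the transcript strand of the longest 3′ UTR of each gene in GENCODE M21 (GRCm38). UTRs of like length are those whose lengths differ by no more than a ratio of 0.8, the gene's own UTR included. Mature microRNAs were taken from RefSeq (GRCm38.p6). The ratios, their intervals and the fold calls were tested on simulated counts, whereas the counting of lists was not. Those counts were independent Poisson draws, the model behind the intervals, for genes with many UMIs. They held no variation among cells or embryos, so they say nothing of how the intervals cover it. The other tools were igraph 0.11.9, scikit-learn 1.9.0, anndata 0.12.19, matplotlib 3.10.9, scipy 1.17.1, numpy 2.4.6 and pandas 2.3.3 under Python 3.11.15.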

Additional observations from a re-analysis of the deposited data

Results flagged for a closer look

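The transcript Nr6a1os, which lies within Nr6a1 on the opposite strand (GRCm38 chr2:38823257-38852370, plus), held reads outside the 8 genes, with 100 UMIs in the explants and 22474 in the vesicle. In the vesicle it was at 132 CPM in APs and 36.1 CPM in neurons, a ratio of 0.273 (0.249 to 0.298), whereas Nr6a1 was at 1.199, so that sense and antisense features had opposite directions. In the explants Nr6a1os had 75 UMIs in APs and 7 in neurons, again the reverse of Nr6a1. With no control library, these counts were set only against the 3 UMIs that a count of 0 allows.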

How the results depend on the processing

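No paired analysis was possible because each condition has 1 library. No ratio past its fold changed direction, and of the values that answer a comparison 158 stayed within their interval or count and 31 moved, as did 35 others. Ratios not past the fold crossed 1 for eYFP in APs, where the lowest or highest values over the alternatives were 0.834 for Igf2bp3, 0.788 for Lin28b, 0.959 for Lin28a and 1.09 for Igf2bp2. For eYFP in neurons Lin28a, Lin28b and Igf2bp3 crossed 1 as well, with lowest values of 0.960, 0.919 and 0.974. The Hmga2 ratio of neurons to APs moved to 0.108 in the explants and 0.234 in the vesicle with doublets kept, to 0.103 and 0.0813 with another seed, and to 0.0589 and 0.0804 with classes cut from the marker ratio. In the vesicle it was 0.0768 over all barcodes and 0.0827 with thinned cells. With doublets kept 1 gene, not 2, was lower in neurons of the vesicle, since Hmga1 went to 0.541. The pallial over subpallial ratio of Hmga2 was 1.40 and 3.25 at resolution 0.8, 1.36 and 4.43 at resolution 2.5, and 1.17 and 3.59 with another seed, which marked 7 doublets in the explants in place of 60. The eYFP ratio of Hmga2 in APs was 1.39 against tdTomato cells, 1.16 standardised over clusters, 1.10 without the Aldoc cluster, and 1.69, 1.08, 1.14, 1.02 and 1.01 within pallial, septal and subpallial AP-like cells, hem-like cells and APs without a regional name. Within the pallial class 1 gene, Hmga2, was higher past 1.5-fold, where the Aldoc cluster held 225 of the 371 cells without eYFP. In the other pallial clusters the Hmga2 ratio was 1.06, 1.01 and 1.08. The share of all genes past the fold was not counted in these settings. The count of genes lower past 1.5-fold was 0 within pallial and septal AP-like cells, within hem-like cells, where Hmga1 had too few UMIs, and in neurons at 5 eYFP UMIs or more. In neurons 1 gene, Lin28b, was higher with doublets kept, with at least 1000 genes a cell and with thinned cells (1.51 and 1.63 in the latter pair of settings). For 14 combinations there were too few UMIs for a value. The alternative without the Aldoc cluster was chosen after seeing the data. The cause of each change was not tested. Depth limits Lin28a, Lin28b and Nr6a1 in the explants, where classes of under 300 cells hold a few UMIs of each.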
